A study of Rattus norvegicus with 4 samples.

Results

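The epidermal growth factor receptor (ErbB) family and its ligands were followed in cultured rat cortical neurons carrying an shRNA against PHF6, a chromatin-associated protein of the nucleus. The 10 genes were the 4 receptors Egfr, Erbb2, Erbb3 and Erbb4, the receptor-binding scaffold gene Erbin, the neuregulin genes Nrg1 to Nrg4 and the ligand gene Hbegf, out of 17245 named genes on the arrays. They were taken by family membership with earlier results of these data known, and where a gene had several probe sets the one used was chosen by its mean intensity over the 4 arrays. All 10 had at least 1 probe set annotated to that gene alone, and Nrg3 had 2.

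ErbB receptors are tyrosine kinases that work as pairs. EGFR binds EGF-type ligands such as HB-EGF, ErbB3 and ErbB4 bind neuregulins, and ErbB2 has no known ligand of its own and acts as the preferred partner of the others. In the developing cortex ErbB4 marks many GABAergic interneurons, EGFR is found on dividing progenitors and glia, and ErbB3 belongs mainly to the oligodendrocyte and Schwann cell lineages. Neuregulins are made as membrane-bound precursors that proteases such as ADAM17 and BACE1 cut.

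RNA came from cortical neurons of Sprague Dawley rat embryos at embryonic day 18, infected with pLL3.7 lentivirus and harvested 5 days after infection. The virus carried a control shRNA in 2 arrays, labelled wild type, and PHF6shRNA-2 in the other 2, labelled PHF6 knockdown. A single shRNA sequence was used, so PHF6 loss and other effects of that shRNA cannot be told apart. The labels call the arrays biological duplicates 1 and 2 without saying whether they were separate cultures, so p-values here reflect only how these arrays vary, which may be technical. The sample descriptions number them as experiments 1 and 2 in both groups, and no label says whether equal numbers share a culture or batch. The fit used here ignores these numbers. A fit with the number as a block is given beside it for Egfr, Erbin, Erbb4, Hbegf and the count of all genes. P-values of pathway and marker genes come from the fit without the block.

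The deposited probe set intensities ran from 8.57 to 6121, with array medians of 40.9 to 41.7. A background level was set at the 95th percentile of 206 genes for olfactory or vomeronasal receptors. It was 41.1 and 32.5 intensity units in control duplicates 1 and 2, and 39.9 and 32.7 in PHF6 shRNA duplicates 1 and 2. Phf6 itself read 32.8 and 34.3 in the controls and 34.4 and 31.3 with PHF6 shRNA, above background on 1 of 4, so it does not check the labels. Markers of excitatory neurons were above background on at least 2 arrays in 9 of 9 measured genes. The counts were 9 of 9 for astrocytes, 9 of 9 for dividing cells and progenitors, 10 of 13 for interneurons, 7 of 9 for the oligodendrocyte lineage, 5 of 8 for fibroblasts, 4 of 10 for microglia and 1 of 7 for endothelial and mural cells. On single arrays 9743 to 11143 of all 17245 genes were above background.

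**Figure D1:**
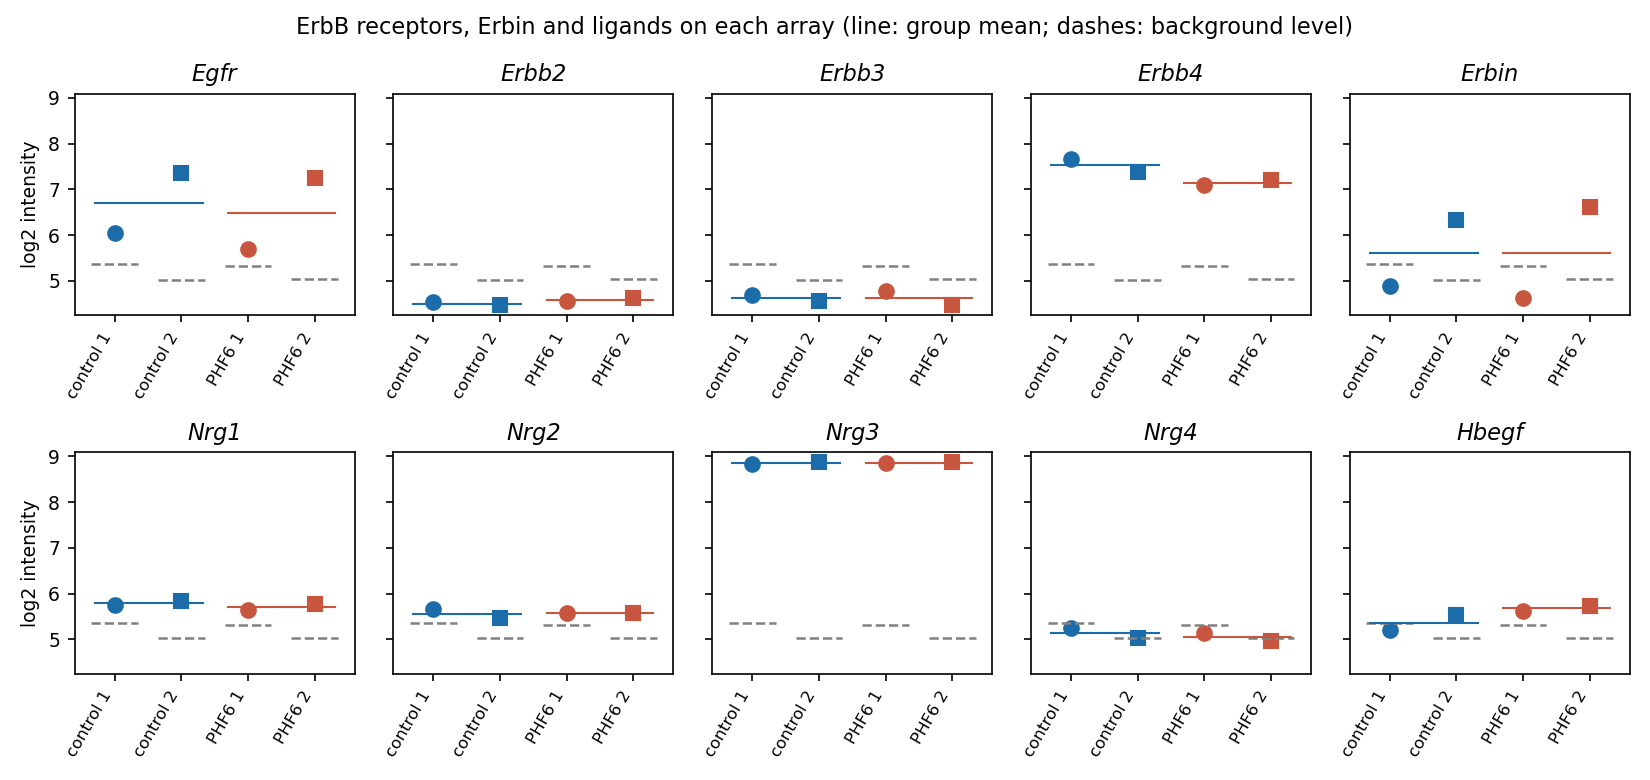
Log2 intensity (vertical axis) of the 10 genes on each of the 4 arrays (horizontal axis), blue for control shRNA and red for PHF6 shRNA, circles for duplicate 1 and squares for duplicate 2. Solid lines are group means and dashes the background level of each array. Egfr and Erbin separate by duplicate number with the widest gaps, and Erbb3 and Nrg1 to Nrg4 do so with smaller ones. Erbb4, Hbegf and, below background, Erbb2 separate by group. Erbb2 and Erbb3 lie under the background level on all 4 arrays.

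Erbb4 read lower and Hbegf higher with PHF6 shRNA on both arrays than on either control array, while Nrg3 differed little between any 2 arrays and Egfr and Erbin differed far more between duplicates than between groups. None of the 10 genes passed an adjusted p of 0.05 in the limma fit over all genes, where 0 of 17245 passed (0%). In a limma fit that took the duplicate number as a block, 909 genes did (5.27%), none of them among the 10. At an unadjusted p under 0.05 the count without the block was 1 of 10, Erbb4, against 10.8% of all genes in that limma fit. With the block Hbegf, Erbb4 and Egfr were under it (limma unadjusted p 0.0067, 0.0073 and 0.035). The share of all genes under 0.05 with the block was not counted, so these genes cannot be read as exceeding it. Of the 10 genes 5 were lower and 5 higher, with a median difference of 0.0022 log2 units against -0.0066 for all genes. Without overlap between the groups were 1 gene lower (Erbb4), where 21.7% of all genes were lower in this way, and 2 genes higher (Erbb2 and Hbegf), where 16.0% were. Both counts are close to what these shares give among 10 genes. By duplicate number, 4 of the 10 genes were higher without overlap in duplicate 2 of both groups, where 19.7% of all genes were. Another 3 were lower in this way, where 24.6% of all genes were. An exact test of 2 arrays against 2 cannot give a two-sided p below 0.333.

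Erbb4, the neuregulin receptor of interneurons, gave intensities of 204 and 166 in the controls and 137 and 147 with PHF6 shRNA, all above background. The highest PHF6 shRNA value lay under the lowest control value, and control duplicate 1 stood above the other 3 arrays. On the log2 scale the groups were at 7.52 ± 0.21 and 7.14 ± 0.07 (SD, n = 2 each), which differ by -0.38 ± 0.12 (SE), or 1.30-fold, with a 95% interval from -0.69 to -0.07. Its limma adjusted p was 0.39 (unadjusted 0.025). Between the arrays numbered 1 the difference was -0.58, and between those numbered 2 it was -0.18. In a bulk sample, fewer cells that carry Erbb4 and less Erbb4 RNA per cell cannot be told apart.

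Markers of GABAergic interneurons were read on the same arrays. Of 13 measured, 12 were higher and 1 (Gad2, at -0.02) lower with PHF6 shRNA, the median being 0.12 log2 units, and none passed adjusted for all genes. Their summed intensity was 4621 and 3576 in the controls and 4975 and 4068 with PHF6 shRNA, so duplicate 1 was higher in each group and the groups overlapped. Pvalb, Vip and Dlx1, counted among the higher, were above background on no array. Gad1, which makes GABA, differed by 0.16, and Lhx6, a transcription factor of interneurons, by 0.11. The largest differences of the list were those of Dlx5 at 0.33 and Dlx6 at 0.25, transcription factors of the interneuron lineage. Their limma unadjusted p were 0.044 and 0.034, adjusted 0.44 and 0.41. The Dlx5 value is not exact, since neither control intensity, 32.1 or 29.0, reached the level set for its array. With PHF6 shRNA Dlx5 read 42.4 and 34.7, each over that level. Of excitatory neuron markers 7 of 9 (median 0.12) and of astrocyte markers 9 of 9 (median 0.20) were also higher with PHF6 shRNA. So were 6 of 8 fibroblast (0.03) and 4 of 7 endothelial and mural markers (0.03). Lower were 6 of 9 oligodendrocyte lineage (-0.04), 7 of 10 microglia (-0.02) and 5 of 9 dividing cell and progenitor markers (-0.02). None of these passed the adjusted threshold. Slc1a2, the glial glutamate transporter GLT-1, differed by 0.98. Of the excitatory list Neurod1 differed most, at 0.868, while Slc17a6 differed by -0.685, against the direction of 7 of 9. The part of these cells in the Erbb4 difference was not tested.

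By distance of mean-centred log2 values over the 4 arrays, the genes most like Erbb4 among 9509 genes above background were Mapk10, Snhg11 and Mettl22, at root mean square distances of 0.033, 0.034 and 0.036. Mapk10, the neuronal JNK3 kinase, read 757 and 657 in the controls and 525 and 562 with PHF6 shRNA. With 4 arrays such likeness carries little weight, and 196 of the 9509 genes lay within 0.1 log2 units of Erbb4.

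Egfr, the receptor for EGF and HB-EGF, gave intensities of 66.4 and 163 in control duplicates 1 and 2, and 52.1 and 152 in PHF6 shRNA duplicates 1 and 2. Both arrays numbered 2 were higher than both numbered 1, by 1.30 log2 units (2.46-fold) in the controls and 1.54 (2.92-fold) with PHF6 shRNA. The groups overlapped, at 6.70 ± 0.92 and 6.47 ± 1.09 (SD, n = 2 each). The difference of -0.23 ± 0.61 (SE) had a 95% interval from -1.77 to 1.31 (limma adjusted p = 0.98). With the duplicate number as a block the same difference had an SE of 0.089 and a limma adjusted p of 0.21 (unadjusted 0.035), so the width of the interval comes from leaving the number out. Between arrays of the same number it was -0.35 for 1 and -0.10 for 2.

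Erbin, which encodes a PDZ and leucine-rich repeat scaffold that binds ErbB2, had the same pattern. Its intensities were 29.7 and 80.4 in control duplicates 1 and 2, and 24.8 and 97.6 in PHF6 shRNA duplicates 1 and 2. Only the arrays numbered 2 were above background, 1 of 2 in each group. The gaps of 1.44 and 1.98 log2 units are therefore not exact, and duplicate 2 was at least 1.96-fold higher in control and at least 2.45-fold higher with PHF6 shRNA, taken against the background level of duplicate 1. The group difference of 0.01 ± 0.75 (SE, or 0.12 with the number as a block) (limma adjusted p = 0.999) includes these values below background and is not exact either. Between the arrays numbered 2, both above background, it was 0.28, and those numbered 1 give no measured difference.

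These gaps stood far outside those of most genes. The median absolute gap between duplicates was 0.12 log2 units over all genes in control and 0.10 with PHF6 shRNA, and the 95th percentiles were 0.41 and 0.42. Among 9538 genes above background on all 4 arrays, a gap of over 1 log2 unit toward duplicate 2 in both groups was found for 16, 0.168%, of which Egfr was 1. Erbin is not among these genes, and its bound in control lies under a gap of 1. The background level moved the other way, from 41.1 to 32.5 and from 39.9 to 32.7.

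Markers of dividing cells and progenitors and of astrocytes moved with Egfr and Erbin between duplicates. Of 9 measured markers of dividing cells and progenitors, 9 were higher in duplicate 2 of both groups, with median gaps of 0.41 in control and 0.68 with PHF6 shRNA. Their summed intensity was 616 and 975 in control duplicates 1 and 2, and 557 and 1029 in PHF6 shRNA duplicates 1 and 2. Mki67, a protein of dividing cells, read 108 and 205 in control and 60.7 and 236 with PHF6 shRNA. Of 9 astrocyte markers, 9 were higher in duplicate 2 of both groups, with median gaps of 0.59 and 0.48 and summed intensities of 842 and 1494 in control and 1179 and 1824 with PHF6 shRNA. Gfap, Gja1, Fgfr3, Cdk1 and Nes were below background in duplicate 1 of both groups. Aqp4 and Pax6 were below it in control duplicate 1 and Ccnb1 in PHF6 shRNA duplicate 1. Gaps that include these values are not exact. Slc1a3, the glial glutamate transporter GLAST, had gaps of 1.29 and 1.26, close in size to those of Egfr. Olig1, a transcription factor of the oligodendrocyte lineage, had gaps of 1.42 and 1.56, while the whole list of that lineage had medians of 0.06 and 0.16. The second Olig1 gap is not exact, as PHF6 shRNA duplicate 1 was below background. Interneuron markers had median gaps of -0.15 and -0.20. The part of these cells in the Egfr and Erbin values was not tested.

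**Figure D2:**
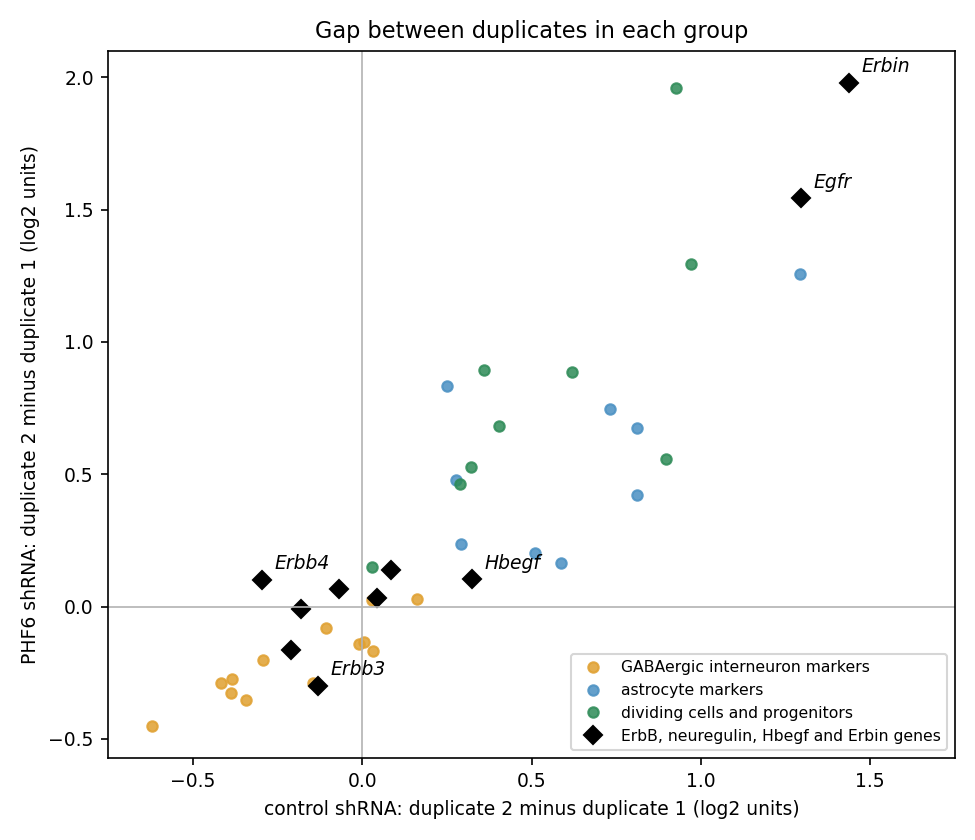
Gap between duplicates, as duplicate 2 minus duplicate 1 in log2 units, in the control shRNA arrays (horizontal axis) and the PHF6 shRNA arrays (vertical axis). Black diamonds are the 10 genes and coloured circles the markers of interneurons, astrocytes, and dividing cells and progenitors. Egfr and Erbin lie at 1.30 and 1.54 and at 1.44 and 1.98, and the other 8 genes lie closer to 0. The astrocyte marker Slc1a3 lies near Egfr at 1.29 and 1.26, and the other markers shown had smaller gaps in control. Erbin was below background in duplicate 1 of both groups, so its position is not exact.

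The sequences just upstream of the RefSeq gene starts of Egfr and Erbin are shown because these genes moved together between duplicates, with that of Erbb4, which had the largest group difference. Each is the 250 bases before the start, in GRCr8 and on the strand of the gene, at chr14:95378376-95378625 (plus strand) for Egfr, chr2:36762154-36762403 (minus strand) for Erbin and chr9:78045607-78045856 (minus strand) for Erbb4. Capitals mark the GC box, GGGCGG on either strand.
Egfr: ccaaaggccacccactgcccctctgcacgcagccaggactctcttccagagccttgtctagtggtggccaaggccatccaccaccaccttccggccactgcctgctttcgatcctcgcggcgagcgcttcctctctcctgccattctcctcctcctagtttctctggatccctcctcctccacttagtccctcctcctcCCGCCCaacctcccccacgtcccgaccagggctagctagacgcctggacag
Erbin: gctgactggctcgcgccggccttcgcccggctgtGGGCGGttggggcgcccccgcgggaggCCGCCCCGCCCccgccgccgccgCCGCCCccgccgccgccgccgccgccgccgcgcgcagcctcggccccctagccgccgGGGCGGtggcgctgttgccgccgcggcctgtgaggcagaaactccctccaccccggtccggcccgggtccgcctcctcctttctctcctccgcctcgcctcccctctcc
Erbb4: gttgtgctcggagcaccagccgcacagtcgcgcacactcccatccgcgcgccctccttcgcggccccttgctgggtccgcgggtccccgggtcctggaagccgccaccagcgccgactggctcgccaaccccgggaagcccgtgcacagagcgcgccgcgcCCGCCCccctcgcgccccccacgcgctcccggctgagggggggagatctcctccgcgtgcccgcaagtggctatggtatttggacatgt
Erbin held 5 GC boxes, of which 2 share a base, and Egfr and Erbb4 held 1 each. At least 1 was found in 30.5% of 33469 RefSeq promoters of this length. Erbin also had the most CpG dinucleotides among the family members matched, 40, against 11 for Egfr, 31 for Erbb4 and a median of 5 over all promoters. No match to the E-box CACGTG (5.59% of promoters), the TATA box TATAAA (12.9%) or the cAMP response element TGACGTCA (1.59%), searched on both strands, was found in the 8 family promoters that the table holds. The arrays do not show which start was used, and a match describes the letters only.

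Erbb2 and Erbb3 were not above background on any of the 4 arrays. Erbb2, the receptor without a ligand, read 23.2 and 22.2 in the controls and 23.6 and 24.7 with PHF6 shRNA. Although the groups did not overlap, both were below background, and the difference of 0.09 ± 0.08 (SE) log2 units has no fold (limma adjusted p = 0.88). Erbb3, the kinase-impaired neuregulin receptor, read 26.0 and 23.8 in control and 27.5 and 22.3 with PHF6 shRNA, with overlapping groups. Of 9 oligodendrocyte lineage markers, where Erbb3 is known to be expressed, 7 were above background on at least 2 arrays.

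Nrg3, a neuregulin that binds ErbB4 and is made by excitatory neurons, was the steadiest of the 10 genes. It read 453 and 466 in the controls and 459 and 469 with PHF6 shRNA. The groups were at 8.84 ± 0.03 and 8.86 ± 0.02 (SD, n = 2 each), and the difference of 0.01 ± 0.08 (SE) had a 95% interval from -0.19 to 0.22 (limma adjusted p = 0.996). A second Nrg3 probe set read 20.6 to 23.0, below background on all 4 arrays, and differed by -0.05.

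Nrg1, the best known ErbB3 and ErbB4 ligand, read 53.8 and 57.1 in the controls and 49.6 and 54.6 with PHF6 shRNA. The groups overlapped and the difference was -0.09 ± 0.09 (SE), with a 95% interval from -0.33 to 0.14 (limma adjusted p = 0.89). A single probe set stood for the gene, so isoforms of Nrg1, which has many, were not resolved. Nrg2 read 50.3 and 44.4 in control and 48.0 and 47.7 with PHF6 shRNA, a difference of 0.02 with a 95% interval from -0.23 to 0.26. Nrg4, an ErbB4 ligand, read 38.1 and 32.9 in control and 35.1 and 31.3 with PHF6 shRNA, above background on 1 array only, control duplicate 2.

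Hbegf, a heparin-binding ligand of EGFR and ErbB4, read 36.7 and 46.0 in the controls and 49.4 and 53.1 with PHF6 shRNA. Both PHF6 shRNA arrays were above both control arrays, and control duplicate 1 was below its background level, so the fold is not exact. The groups were at 5.36 ± 0.23 and 5.68 ± 0.07 log2 units (SD, n = 2 each), which differ by 0.32 ± 0.13 (SE) with a 95% interval from -0.01 to 0.64. The limma adjusted p was 0.48 (unadjusted 0.055). The difference was 0.43 between the arrays numbered 1 and 0.21 between those numbered 2.

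The other ligand genes of the family were all higher with PHF6 shRNA, 6 of 6, though the median was only 0.04 log2 units and none passed the adjusted threshold. Tgfa, an EGFR ligand, read 41.2 and 41.9 in the controls and 47.2 and 49.6 with PHF6 shRNA. Its groups did not overlap, and the difference was 0.22 ± 0.08 (SE), or 1.17-fold (limma adjusted p = 0.43, unadjusted 0.041). Btc, a ligand of EGFR and ErbB4, differed by 0.01 and Egf by 0.07, the latter above background on 2 arrays. Areg, Ereg and Epgn were above background on none, with differences of 0.01, 0.04 and 0.04. Leaving out single arrays took Areg, Ereg, Btc and Epgn as low as -0.037, -0.044, -0.049 and -0.013, so their direction is not settled.

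**Figure D3:**
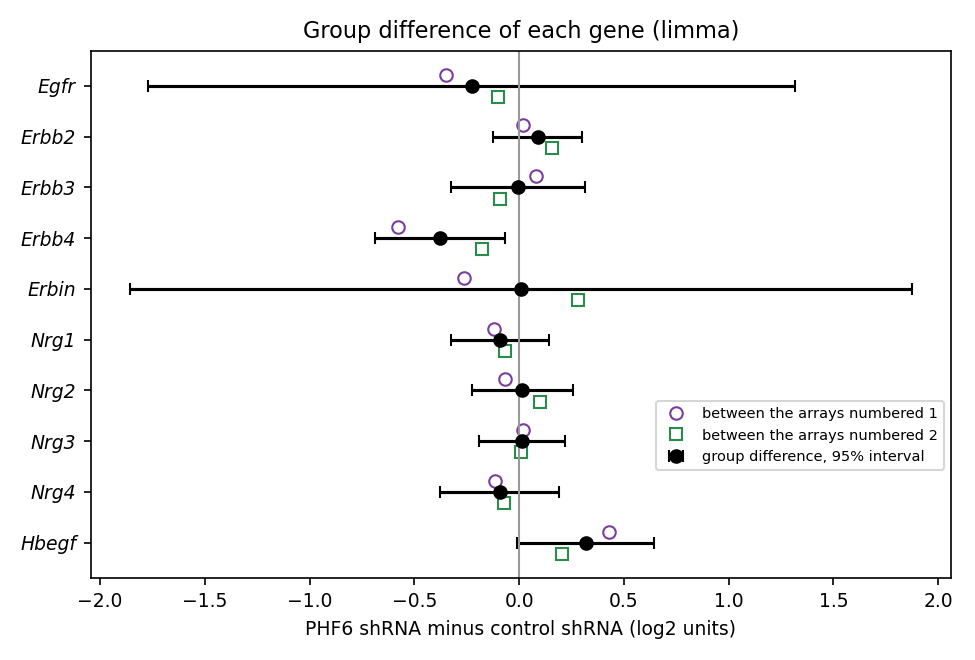
PHF6 shRNA minus control shRNA difference of each of the 10 genes in log2 units (horizontal axis). Black points are limma estimates with 95% intervals, open circles the difference between the arrays numbered 1 and open squares that between the arrays numbered 2. The interval of Erbb4 runs from -0.69 to -0.07 and that of Nrg3 from -0.19 to 0.22, while those of Egfr and Erbin are several times wider.

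Among the other genes of the pathway, given as 8 lists with 91 of 101 genes measured, none passed the adjusted threshold (limma, lowest adjusted p = 0.24). At an unadjusted p under 0.05 in the same limma fit there were 9 lower and 5 higher, together 15.4% of the 91, against 10.8% of all genes. In all 45 were lower and 46 higher, the median being 0.0027. The genes named below were chosen from each list for the smallest p on these same arrays. Their small unadjusted p and groups without overlap therefore follow largely from that choice and are not separate evidence. Of all genes, 21.7% were lower without overlap and 16.0% higher.

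In the list of proteases that cut ErbB ligands and receptors, 7 of 10 genes were lower. It also holds Rhbdf1, Rhbdf2 and protease subunits, so it is not a list of proteases alone. The median was -0.06, though it was 0.09 without PHF6 shRNA duplicate 1. Bace1, the beta-secretase that processes Nrg1, read 336 and 303 in the controls and 226 and 245 with PHF6 shRNA. Its groups did not overlap and the difference was -0.44 ± 0.10 (SE), or 1.35-fold (limma adjusted p = 0.25, unadjusted 0.0055). Aph1a and Ncstn, subunits of the gamma-secretase that releases the intracellular part of ErbB4, differed by -0.28 and -0.18, also without overlap.

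Adaptors and enzymes that bind active receptors were lower in 10 and higher in 10 of 20. Sos1, which loads RAS with GTP, read 234 and 303 in the controls and 171 and 188 with PHF6 shRNA, a difference of -0.57 ± 0.14 (SE). Nck2, an SH2 and SH3 adaptor, went the other way at 0.41 ± 0.10 (SE), with 119 and 139 against 172 and 168. Shc3, the neuronal Shc adaptor, differed by 0.22. Limma adjusted p for these genes ran from 0.29 to 0.50.

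The PI3K and AKT branch was lower in 8 of 11, the median being -0.15 log2 units (-0.08 without control duplicate 2), and held the gene that differed most in the 8 lists. Pik3r3, a regulatory PI3K subunit, read 182 and 169 in the controls and 304 and 245 with PHF6 shRNA, a difference of 0.64 ± 0.13 (SE), or 1.56-fold. Akt2 read 276 and 263 against 178 and 201, a difference of -0.51 ± 0.10 (SE), and Akt1 differed by -0.25. Neither Pik3r3 nor Akt2 overlapped between groups, which their choice by smallest p makes likely. Both had a limma adjusted p of 0.24 and unadjusted p of 0.0032 and 0.0025.

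The RAS and MAPK branch was lower in 4 and higher in 4 of 8 measured. Shoc2, a scaffold that promotes RAF activation, read 929 and 900 in the controls and 655 and 717 with PHF6 shRNA, a difference of -0.42 ± 0.09 (SE). Map2k1, the kinase MEK1, read 195 and 192 against 243 and 255, a difference of 0.37 ± 0.08 (SE). Ksr1, another RAF scaffold, differed by -0.12.

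Negative regulators of ErbB signalling were higher in 12 of 17, the median being 0.10 (-0.02 without control duplicate 1), and none had an unadjusted p under 0.05. Lrig3 and Spry2 differed by 0.28 and 0.27 and Lrig2 by -0.26. Scaffold partners of Erbin and ErbB4 were lower in 6 of 9, the median being -0.12 (0.02 without PHF6 shRNA duplicate 2). Ctnnd2 and Pkp4, catenins that bind Erbin, differed by -0.29 and -0.23, both without overlap, and Dlg2, a synaptic PDZ scaffold, by 0.19.

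Transcription factor genes that ERK induces were lower in 5 and higher in 5 of 10. Egr1 read 249 and 259 in the controls and 358 and 329 with PHF6 shRNA, a difference of 0.44 ± 0.09 (SE). Etv5 read 93.6 and 112 against 69.3 and 78.6, a difference of -0.47 ± 0.13 (SE), and Junb differed by 0.22. Limma adjusted p for Egr1 and Etv5 were 0.24 and 0.30.

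**Figure D4:**
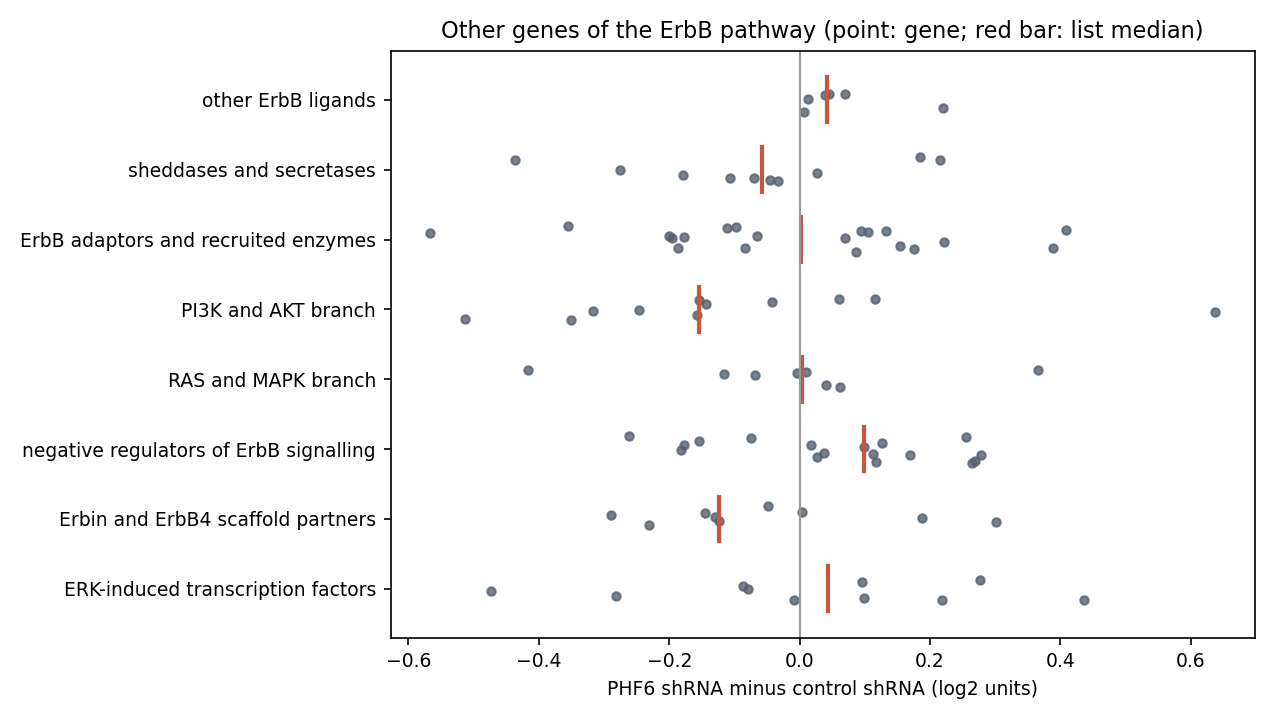
PHF6 shRNA minus control shRNA difference in log2 units (horizontal axis) of the measured genes in 8 pathway lists (vertical axis). Points are genes and red bars list medians, which run from -0.15 for the PI3K and AKT branch to 0.10 for negative regulators. Most lists hold genes on both sides of 0, and the other ErbB ligands lie at or above it.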

How the data were processed

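Total RNA (Trizol) was turned into biotin-labelled sense target and run on 1-colour Affymetrix arrays (per the labels' protocols). The deposited values are probe set intensities from RMA as the authors ran it (per the submitters' processing notes), with no version or settings stated in those notes. The scale is linear, and log2 was applied first. RMA compresses differences of dim probe sets. Of 29214 rows, 18644 carried 1 gene symbol, updated through the gene identifier to RefSeq (GRCr8). The brightest probe set stood for each gene.

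Testing used limma 3.58.1 under R 4.3.3 (lmFit, eBayes, 2-sided, no filter, no block), adjusted by Benjamini-Hochberg over 17245 genes at 0.05, and the script was tested on simulated data. Genes and lists were chosen with earlier results of these data known. Named pathway genes were the 3 per list with the smallest p among those above background on at least 2 arrays, and all other ErbB ligands. The number of arrays limits the precision. Alternatives were a replicate block, each array left out, 3 scalings, 2 filters on dim genes, the mean of probe sets, an intensity trend and array weights.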

Additional observations from a re-analysis of the deposited data

How the results depend on the processing

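Under 13 alternatives none of the 10 genes passed the adjusted threshold. Erbb4 stayed between -0.526 and -0.229 log2 units (limma adjusted p 0.087 to 0.74) and Hbegf between 0.155 and 0.479 (0.082 to 0.75). With the duplicate number as a replicate block 909 of all genes passed, 5.27%, and none of the 10, with limma adjusted p of 0.087 for Erbb4, 0.082 for Hbegf and 0.21 for Egfr. Same-numbered arrays deviated together (r = 0.571 over genes), but no label states a pairing. Leaving out single arrays gave 0 to 90 genes past the threshold, with 90 when PHF6 shRNA duplicate 2 was dropped and 2 when PHF6 shRNA duplicate 1 was. It also turned the direction of 6 genes. Egfr ran from -0.999 to 0.545, higher in PHF6 shRNA arrays without control duplicate 2 or PHF6 shRNA duplicate 1, and Erbin from -0.980 to 0.999, lower without control duplicate 1 or PHF6 shRNA duplicate 2. Such fits hold unequal duplicate numbers in the groups, so the gap between duplicates enters them. The other 4 were near 0, Erbb3 from -0.155 to 0.145, Nrg2 from -0.074 to 0.106, Nrg3 from -0.0077 to 0.035 and Nrg4 from -0.197 to 0.013. With the mean of its probe sets Nrg3 was at -0.018. The 3 scalings kept the sign of all 10 differences. Erbb2 and Erbb3 had no value under either filter and Nrg4 none under 1 of them. Of 104 alternative list medians 12 moved by more than the spread between arrays, most of them with an array left out. The block, the intensity trend and the array weights left every list median unchanged, so the 104 overstate the variety of these checks. Medians of the adaptors and of the RAS and MAPK branch were -0.0041 and -0.0026 after centring on the median.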

Other observations

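Besides Egfr, 15 genes above background on all 4 arrays had a gap of over 1 log2 unit toward duplicate 2 in both groups, and those described here were named after their values were seen. Fabp7, the brain lipid-binding protein of radial glia, had gaps of 1.88 in control and 1.76 in PHF6 shRNA arrays. Slc6a11, a GABA transporter of astrocytes, had 1.39 and 1.24, and Ndrg2 1.17 and 1.65. Ccl2, a chemokine that inflammatory signals induce, had 1.67 and 2.21. The peptide transporter gene Slc15a2 had 1.71 and 1.56, and Rfx4, a transcription factor gene, 1.10 and 1.14. The others were Nt5dc2, Zfp36l1, Slc1a3, Dbi, Arhgap42, Slc38a3, Serpine2, Gabrg1 and F3. No list was tested for enrichment among these genes. Only 2 genes above background on all 4 arrays had such a gap toward duplicate 1, among them Npas4, an activity-induced transcription factor, at -1.45 and -1.35.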
